A study of Mus musculus with 16 samples.

Results

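The carboxylesterases (Ces), aldehyde dehydrogenases (Aldh), aldo-keto reductases (Akr) and hydroxysteroid dehydrogenases (Hsd) were described in colon mucosa of mice with and without sulindac, a non-steroidal anti-inflammatory drug. The members were all genes of these 4 families with a single gene symbol on the array, taken by the start of the symbol, and each had 1 measured transcript cluster. They numbered 73 of 30702 genes tested, with 19 Ces, 20 Aldh, 15 Akr and 19 Hsd genes. Ces2d-ps is annotated as a pseudogene. Akr1b3, Akr1b7, Ces2c, Aldh3b3 and Hsd3b4 were not analysed here.

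RNA of the mucosal layer was measured on 1 Affymetrix array per sample, in 4 groups of male C57BL/6J mice. All groups carried Mcc with loxP sites on both alleles. Knockout mice (KO, VILcreMccf/f) also carried a Cre transgene under the villin promoter, which is active in intestinal epithelium, so other cells kept the gene. Their siblings without Cre (Mccf/f) are called wild type (WT). The mice were 6 weeks old when the diets began, and they ate control feed or feed with sulindac at 320 ppm over 10 weeks. In sulindac-fed mice mucosa was taken only from inflamed areas of the proximal colon, called lesions here, and in control-fed mice from the matching normal tissue. The arrays comprised 4 KO lesions, 3 KO controls, 3 WT lesions and 6 WT controls. No array held uninflamed mucosa of sulindac-fed mice, so the drug and the choice of inflamed tissue cannot be told apart. The labels do not say which arrays came from separate animals, so p-values measure the spread between these samples. All values are log2 expression as deposited, after robust multi-array averaging (RMA).

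Carboxylesterases are serine hydrolases, mostly of the endoplasmic reticulum, that cleave esters and amides in drugs and in lipids. Aldehyde dehydrogenases oxidise aldehydes to acids, and Aldh1a1, Aldh1a2 and Aldh1a3 make retinoic acid, the signalling form of vitamin A, from retinaldehyde. Aldo-keto reductases and hydroxysteroid dehydrogenases interconvert hydroxyl and carbonyl groups on steroids, sugars and other substrates, and so set the local level of active steroid hormones. In the colon many of them are expressed by the epithelium, where they meet compounds from food, microbes and bile. Several lie in clusters of tandem copies, among them Ces1, Ces2, Akr1c, Hsd3b and the pair Aldh1a1 and Aldh1a7, and probes of one copy may also bind transcripts of another. Levels of different genes are not compared here, since each probe set has its own scale.

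The promoters of 4 genes that were lower in lesions are shown because each holds the letters AGATAA, the motif of GATA factors, within its last 40 bases, and that of Aldh1a7 is shown as the close copy of Aldh1a1 without those letters. They are the 250 bases before the start of the gene in RefSeq (GRCm38.p6), 5′ to 3′ on the strand of the gene, with AGATAA or its reverse complement TTATCT in capitals. The Aldh1a1 window lies at chr19:20601718-20601967 on the plus strand with the motif at position -32 from the start. RefSeq has another Aldh1a1 start, whose window at chr19:20492333-20492582 on the plus strand lacks those letters and is not shown. The window of Aldh1a7 lies at chr19:20727557-20727806 on the minus strand. Ces1e lies at chr8:93229620-93229869 on the minus strand with the motif at -15. Ces2g lies at chr8:104961468-104961717 on the plus strand with the motif at -38. Hsd3b6 lies at chr3:98814444-98814693 on the minus strand with the motif at -31.
Aldh1a1: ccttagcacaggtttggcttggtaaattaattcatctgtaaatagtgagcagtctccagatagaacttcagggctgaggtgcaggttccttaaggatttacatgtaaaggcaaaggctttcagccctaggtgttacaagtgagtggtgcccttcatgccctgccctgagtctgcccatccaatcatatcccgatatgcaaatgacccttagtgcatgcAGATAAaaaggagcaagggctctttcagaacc
Aldh1a7: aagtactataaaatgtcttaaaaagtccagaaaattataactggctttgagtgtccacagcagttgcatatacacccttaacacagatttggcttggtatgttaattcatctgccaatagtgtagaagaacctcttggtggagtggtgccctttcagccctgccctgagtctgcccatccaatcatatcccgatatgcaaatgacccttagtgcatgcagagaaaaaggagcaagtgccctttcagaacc
Ces1e: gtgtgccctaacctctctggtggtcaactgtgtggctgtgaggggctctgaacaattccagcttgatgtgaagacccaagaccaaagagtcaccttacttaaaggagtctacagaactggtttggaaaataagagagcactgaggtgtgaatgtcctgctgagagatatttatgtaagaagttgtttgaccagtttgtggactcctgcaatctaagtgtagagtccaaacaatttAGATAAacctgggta
Ces2g: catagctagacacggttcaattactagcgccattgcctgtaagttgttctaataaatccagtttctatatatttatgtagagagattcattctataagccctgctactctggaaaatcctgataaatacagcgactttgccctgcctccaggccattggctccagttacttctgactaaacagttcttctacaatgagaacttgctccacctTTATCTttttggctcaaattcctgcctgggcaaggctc
Hsd3b6: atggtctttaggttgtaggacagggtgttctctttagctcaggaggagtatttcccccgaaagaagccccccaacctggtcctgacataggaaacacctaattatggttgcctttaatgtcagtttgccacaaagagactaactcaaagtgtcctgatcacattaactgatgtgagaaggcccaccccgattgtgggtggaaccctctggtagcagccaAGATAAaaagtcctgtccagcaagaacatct
Over windows of 300 bases (250 before to 50 after the start), 56 of the 73 genes had an entry. AGATAA on either strand was found in 14 of these 56 genes (25.0%) and in 12.7% of all 27025 genes with a window. Among the 32 of them that were lower in lesions of either genotype 11 held it, against 3 of the other 24. Ces1e, Ces1g, Ces1h, Hsd3b1, Hsd3b3 and Hsd3b6 are among the 11 and lie in clusters of tandem copies. AGATAA was 1 of 17 motifs searched, with results of these data known, and a match is a description of the letters and not of a bound site. A link between these letters and the falls was not tested. The letters TTGCNNAA of C/EBP factors were found in 23.2% of the 56 genes and 12.2% of all. They were in 7 of the 32 lowered genes and 6 of the other 24. TGACNNNGC, the antioxidant response element, was found in 14.3% and 14.0%, GCGTG, the core of the xenobiotic response element, in 26.8% and 35.2%, and TATAAA in 10.7% and 15.7%. Lowered and other genes with a match numbered 2 and 6 for TGACNNNGC, 7 and 8 for GCGTG and 3 and 3 for TATAAA. The other motifs were found in at most 4 of the 56 genes and in 0.0111% to 8.97% of all. They were CAAAGTCCA and its looser form CAAAGTNCA (HNF4), TGANTCA (AP-1), TCAAGGTCA (LRH-1), TTTATGG (CDX), CACGTG (E-box), a strict and a looser form each of the HNF1 and NF-kB motifs, the direct repeat 1 and the glucocorticoid receptor motif. Both strands were searched, and each looser form includes its stricter one.

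A second pair is shown because the promoters of these copies are close to identical. The windows of Akr1c12 (chr13:4279400-4279649, minus strand) and Akr1c13 (chr13:4190937-4191186, plus strand) were 93.4% identical over 300 bases, while the median over all pairs of Akr windows was 50.4%. Capitals mark the bases that differ from the other window or have no partner in it, 15 in Akr1c12 and 12 in Akr1c13.
Akr1c12: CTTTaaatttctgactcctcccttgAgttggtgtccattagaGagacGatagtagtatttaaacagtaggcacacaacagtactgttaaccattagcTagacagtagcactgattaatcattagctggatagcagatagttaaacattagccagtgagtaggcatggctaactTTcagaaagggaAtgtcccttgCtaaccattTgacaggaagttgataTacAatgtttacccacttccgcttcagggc
Akr1c13: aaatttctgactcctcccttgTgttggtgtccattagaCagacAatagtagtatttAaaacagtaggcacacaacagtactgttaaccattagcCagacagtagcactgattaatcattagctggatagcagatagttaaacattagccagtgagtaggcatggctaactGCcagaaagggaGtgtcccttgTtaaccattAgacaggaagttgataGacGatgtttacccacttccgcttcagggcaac
The next most alike pairs were Ces1b and Ces1c with 78.6% and Aldh1a1 and Aldh1a7 with 72.4% of bases identical. The family medians were 50.5% for Ces, 49.4% for Aldh and 49.8% for Hsd.

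Mcc averaged 6.44 ± 0.04 in KO lesions and 7.23 ± 0.16 in WT lesions (SD, n = 4 and 3), a difference of -0.79 (limma adjusted p = 0.0032). With the replicate number as a block it was -0.82 and missed the threshold (adjusted p = 0.0757). In a fit of the lesions alone it was -0.79 and missed the threshold too (adjusted p = 0.205). It averaged 6.57 ± 0.14 in KO controls and 7.16 ± 0.11 in WT controls (SD, n = 3 and 6), a difference of -0.60 that missed the threshold (adjusted p = 0.083). Every KO array was below every WT array. Across the arrays, the mean of 12 epithelial markers lay between 11.05 and 11.25 in KO lesions, against 10.89 to 11.05 in KO controls. It lay between 11.02 and 11.15 in WT lesions, against 10.89 to 11.09 in WT controls. Of these 12 markers 6 were higher and 2 lower in the KO response, and 1 was higher and 0 lower in the WT response. The mean of 9 markers of absorptive colonocytes, the mature surface cells, was lower in lesions, with 9.39 to 10.58 in KO lesions, against 10.75 to 10.94 in KO controls. It was 9.37 to 10.04 in WT lesions, against 10.72 to 10.90 in WT controls, and 4 of the 9 markers were lower in the KO response and 6 in the WT response. Markers of monocytes and macrophages were higher for 10 of 10 genes in both responses, those of fibroblasts for 8 of 9 in both, and those of neutrophils for 8 of 9 in KO and 7 of 9 in WT. In mucosa measured in bulk, fewer cells of a type and less RNA per cell cannot be told apart. The part of these cell types in the changes below was not tested.

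KO lesion 2 stood apart from the other KO lesions. Its colonocyte marker mean of 10.58 was nearest to the controls, and it was the highest of the 4 KO lesions for 29 of the 41 family members that were lower in either response. Its neutrophil marker mean was 9.06, against 8.44, 7.71 and 8.95 in KO lesions 1, 3 and 4 and 4.67 to 4.87 in KO controls. The count over all 73 genes in the KO response, and the values of the genes described by array whose call changes, are also given without it. Sample descriptions carry numbers in a lower and a higher series. All lesions fall in the lower series and all KO controls in the higher, so that within KO the response and the series cannot be told apart. WT controls hold 3 arrays of each. The fit with the series as a covariate, given below, rests on these WT controls and takes the series to act alike in all groups.

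Lesions had lower expression of many of these enzymes in both genotypes. In the response of KO mice, lesions minus controls, 34 of 73 genes passed the test, 31 lower and 3 higher, where 21.1% of all genes passed, 12.1% lower and 8.98% higher. In the response of WT mice 41 of 73 passed, 36 lower and 5 higher, where 15.3% of all genes passed, 8.36% lower and 6.98% higher. The test was limma on all 16 arrays with Benjamini-Hochberg adjustment over all 30702 genes, and a gene passed at an adjusted p under 0.05. The median log2 change of the 73 genes was -0.30 in both responses, while the median of all genes was 0.01 in KO and -0.06 in WT. Without KO lesion 2, 38 genes passed in KO, 35 lower and 3 higher, where 3243 of all 30702 genes were lower and 2596 higher. With WT controls of the lower series alone, 34 passed in WT, 29 lower and 5 higher. Of all 30702 genes 1531 were then lower and 2109 higher.

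Of the 73 genes, 26 were lower in both responses, 3 were higher in both and 27 passed in neither. Another 5 passed in KO alone and 12 in WT alone, which by itself does not show that the genotypes differ. In 13 genes every group mean was below the lowest array median of 4.90, which is called dim here, and 2 of these passed. Leaving these 13 out, 34 of 60 (56.7%) passed in KO and 39 of 60 (65.0%) in WT, while 29.3% and 21.0% of all genes that were not dim passed. The lesions and controls of a genotype did not overlap for 31 of the 34 genes in KO and 40 of the 41 in WT. Among all genes, 19.2% passed without overlap in KO and 13.9% in WT. Changes of at least 1 on the log2 scale, or 2-fold, were passed by 16 lower genes and 1 higher gene in each response. Among all genes 1.43% were lower and 2.35% higher by that much in KO, and 0.857% and 1.75% in WT.

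**Figure D1:**
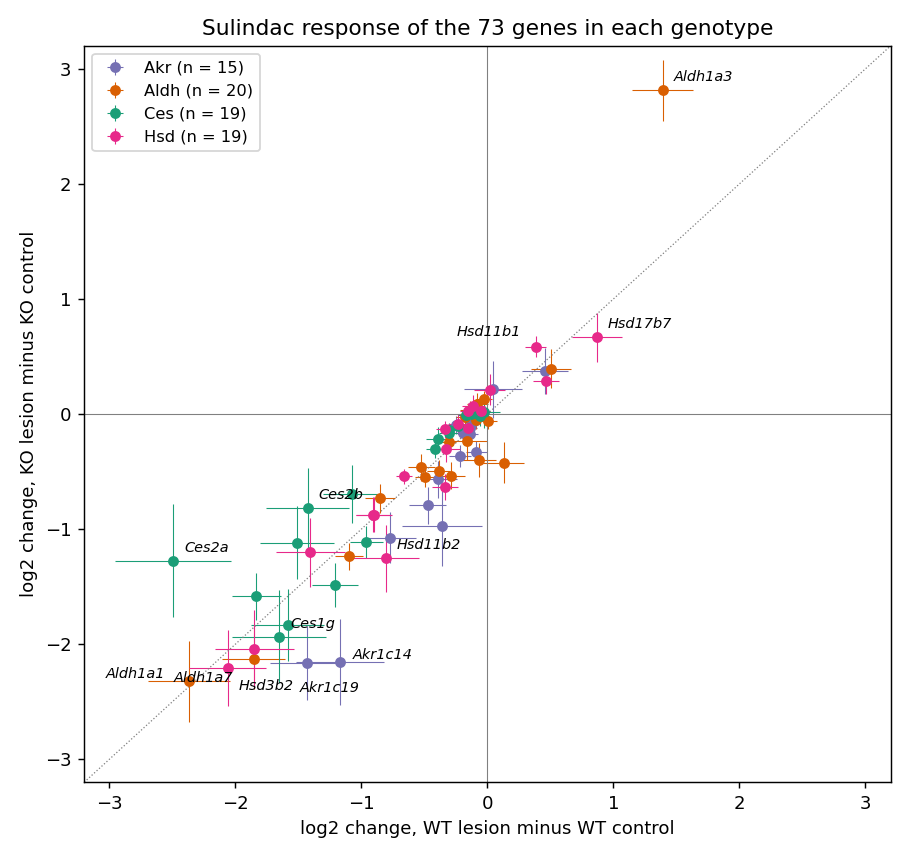
Log2 change of each of the 73 genes in KO (vertical axis, lesion minus control) and WT (horizontal axis, lesion minus control), coloured by family, with bars of 1 SE from the fit. Most changed genes lie at the lower left, and Aldh1a3 lies alone at the upper right with 2.81 in KO and 1.39 in WT.

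The 20 genes with a passed change of at least 1 in either response are given by array. Arrays of a group are listed in replicate order.

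**Figure D2:**
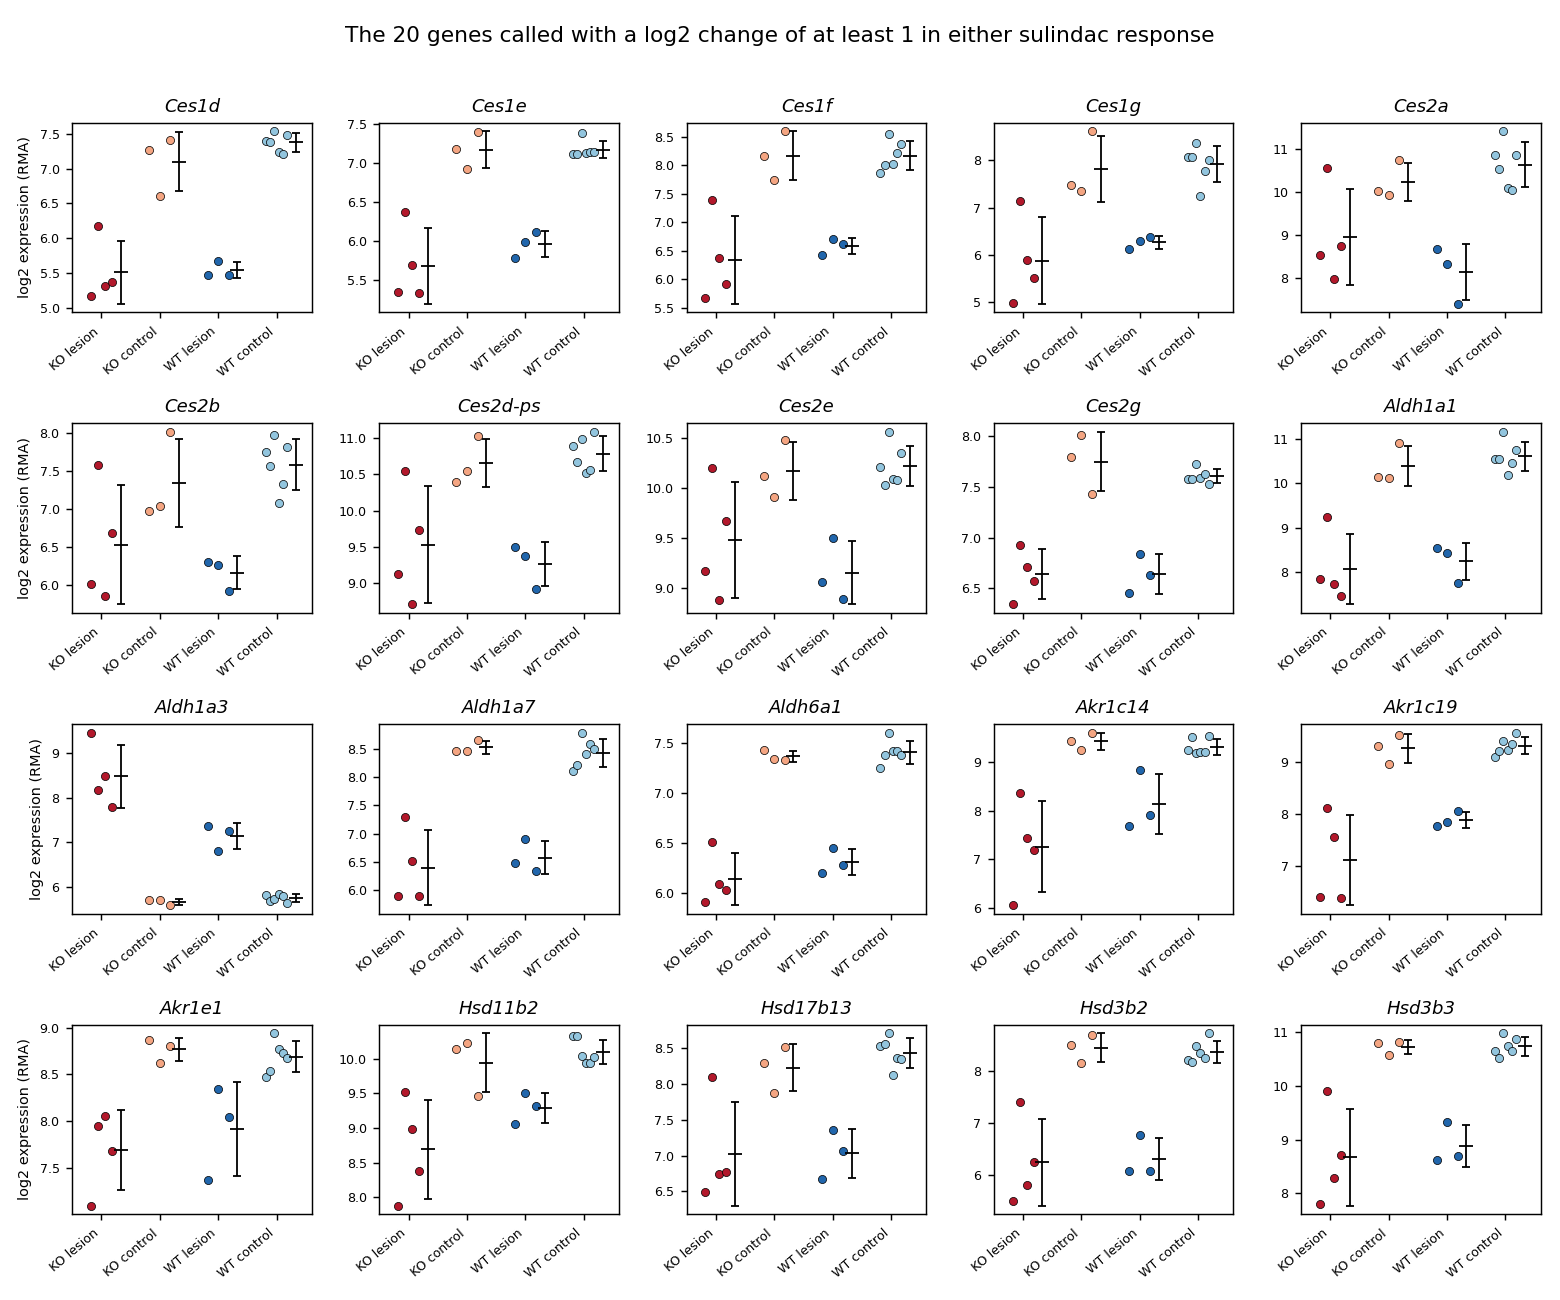
Log2 expression (vertical axis) of the 20 genes in every array, in KO lesions, KO controls, WT lesions and WT controls from left to right, with the mean and SD beside the points. In 19 genes the lesions of a genotype average below its controls, Aldh1a3 is higher in all lesions, and the uppermost KO lesion in most panels is KO lesion 2.

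Among the carboxylesterases, 7 of 19 were lower in KO and 14 of 19 in WT, and none was higher. For this family and those below, 12.1% of all genes were lower in KO and 8.36% in WT. The shares of all genes that were higher were 8.98% and 6.98%. All 8 Ces1 genes were lower in WT and 5 of them in KO. Ces1d, the triacylglycerol hydrolase of the endoplasmic reticulum, had 5.18, 6.17, 5.32 and 5.37 in KO lesions, against 7.26, 6.61 and 7.41 in KO controls. It had 5.48, 5.67 and 5.47 in WT lesions, against a low of 7.21, a median of 7.39 and a high of 7.54 in WT controls. No lesion reached a control of its genotype, and KO lesion 2 was the highest lesion. The log2 change was -1.58 (SE 0.21, adjusted p = 5.40e-05) in KO and -1.83 (SE 0.19, adjusted p = 1.14e-05) in WT, or 3.0-fold and 3.56-fold lower. Ces1e, known as egasyn, which retains beta-glucuronidase in the endoplasmic reticulum, had 5.34, 6.37, 5.69 and 5.33 in KO lesions, against 7.18, 6.92 and 7.40 in KO controls. Its values were 5.78, 5.99 and 6.12 in WT lesions, against a low of 7.11, a median of 7.13 and a high of 7.39 in WT controls. The lesions lay below the controls in both genotypes. The change was -1.49 (SE 0.20, adjusted p = 5.50e-05) in KO and -1.21 (SE 0.18, adjusted p = 2.56e-04) in WT.

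Ces1f and Ces1g, lipid hydrolases in mice, were lower as well. Ces1f had 5.66, 7.39, 6.37 and 5.91 in KO lesions, against 8.16, 7.74 and 8.59 in KO controls. It had 6.42, 6.70 and 6.61 in WT lesions, against a low of 7.86, a median of 8.11 and a high of 8.55 in WT controls. Lesions and controls did not overlap, and KO lesion 2 was the highest lesion. The change was -1.83 (SE 0.31, adjusted p = 5.38e-04) in KO and -1.59 (SE 0.29, adjusted p = 0.00132) in WT. For Ces1g the values were 4.99, 7.14, 5.89 and 5.51 in KO lesions, against 7.48, 7.36 and 8.61 in KO controls. They were 6.12, 6.29 and 6.39 in WT lesions, against a low of 7.24, a median of 8.03 and a high of 8.36 in WT controls. KO lesions spread more widely than WT lesions, and neither overlapped its controls. The change was -1.94 (SE 0.40, adjusted p = 0.00256) in KO and -1.65 (SE 0.37, adjusted p = 0.00627) in WT. Ces1h passed in both with -0.30 in KO and -0.41 in WT, with dim lesions, so its fold is a lower bound. Ces1a, Ces1b and Ces1c, the last a plasma esterase in mice, had -0.17 to -0.10 in KO without passing, and passed in WT with changes between -0.31 and -0.23. Lesions of both genotypes were dim for Ces1b and Ces1c, so their folds are lower bounds too.

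The Ces2 genes, counterparts of human CES2, which cleaves prodrugs such as irinotecan in the gut, were lower for 2 of 7 genes in KO and 6 of 7 in WT. In KO that was 28.6%, while 29.3% of all genes that were not dim passed in either direction. In WT it was 85.7%, against 21.0% of such genes. Ces2a had 8.54, 10.54, 7.97 and 8.75 in KO lesions, against 10.01, 9.92 and 10.73 in KO controls. It had 8.67, 8.33 and 7.40 in WT lesions, against a low of 10.04, a median of 10.69 and a high of 11.41 in WT controls. KO lesion 2 was above 2 of the 3 KO controls, whereas in WT no lesion reached a control. The change was -1.27 (SE 0.50, adjusted p = 0.0839) in KO, which did not pass, and -2.49 (SE 0.46, adjusted p = 0.00137) in WT, or 5.63-fold lower. Without KO lesion 2 it was -1.81 in KO with an adjusted p of 0.00312. The difference between the responses, KO minus WT, was 1.22 (SE 0.67) and did not pass (adjusted p = 0.475). Ces2b had 6.00, 7.58, 5.85 and 6.68 in KO lesions, against 6.98, 7.04 and 8.02 in KO controls. It had 6.30, 6.26 and 5.91 in WT lesions, against a low of 7.07, a median of 7.66 and a high of 7.98 in WT controls. Again KO lesion 2 lay among the KO controls and the WT groups were apart. The change was -0.82 (SE 0.35, adjusted p = 0.123) in KO and -1.43 (SE 0.33, adjusted p = 0.00682) in WT, and without KO lesion 2 it was -1.17 in KO (adjusted p = 0.00975).

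Ces2e had 9.17, 10.20, 8.88 and 9.66 in KO lesions, against 10.12, 9.91 and 10.48 in KO controls. It had 9.06, 9.50 and 8.88 in WT lesions, against a low of 10.03, a median of 10.15 and a high of 10.56 in WT controls. Only KO lesion 2 overlapped its controls. The change was -0.69 (SE 0.25, adjusted p = 0.062) in KO and -1.07 (SE 0.23, adjusted p = 0.00456) in WT, and -0.93 in KO without that array (adjusted p = 0.00542). The pseudogene Ces2d-ps had 9.13, 10.55, 8.71 and 9.74 in KO lesions, against 10.39, 10.55 and 11.02 in KO controls. It had 9.49, 9.38 and 8.93 in WT lesions, against a low of 10.51, a median of 10.78 and a high of 11.08 in WT controls. KO lesion 2 lay above the lowest KO control and the other lesions lay below all controls of their genotype. The change was -1.12 (SE 0.32, adjusted p = 0.0192) in KO and -1.51 (SE 0.29, adjusted p = 0.0021) in WT, and without KO lesion 2 it was -1.46 in KO (adjusted p = 5.90e-04). Leaving out KO control 3 or KO lesion 1 ended the KO call, with adjusted p of 0.0806 and 0.0588, and so did the replicate block (adjusted p = 0.0655). Ces2g had 6.34, 6.93, 6.71 and 6.57 in KO lesions, against 7.80, 8.01 and 7.43 in KO controls. It had 6.45, 6.84 and 6.63 in WT lesions, against a low of 7.53, a median of 7.58 and a high of 7.73 in WT controls. All lesions of both genotypes lay below all controls, KO lesion 2 included. The change was -1.11 (SE 0.14, adjusted p = 3.72e-05) in KO and -0.96 (SE 0.13, adjusted p = 1.03e-04) in WT. Ces2h had -0.22 in KO without passing and passed in WT with -0.39, and Ces2f had changes of 0.02 in KO and -0.03 in WT.

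In RefSeq order the Ces genes lie in 2 groups on chromosome 8, with Ces1a to Ces1h and Ces5a in one and the Ces2 genes, Ces3a, Ces3b and Ces4a in the other. Ces3a, Ces3b, Ces4a and Ces5a passed in neither response, with changes between -0.02 and 0.01 in KO and between -0.17 and -0.06 in WT, and the last 3 were dim in every group. Ces2f and Ces2g are neighbours, and Ces2f, with group means between 5.48 and 5.67, did not pass.

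**Figure D3:**
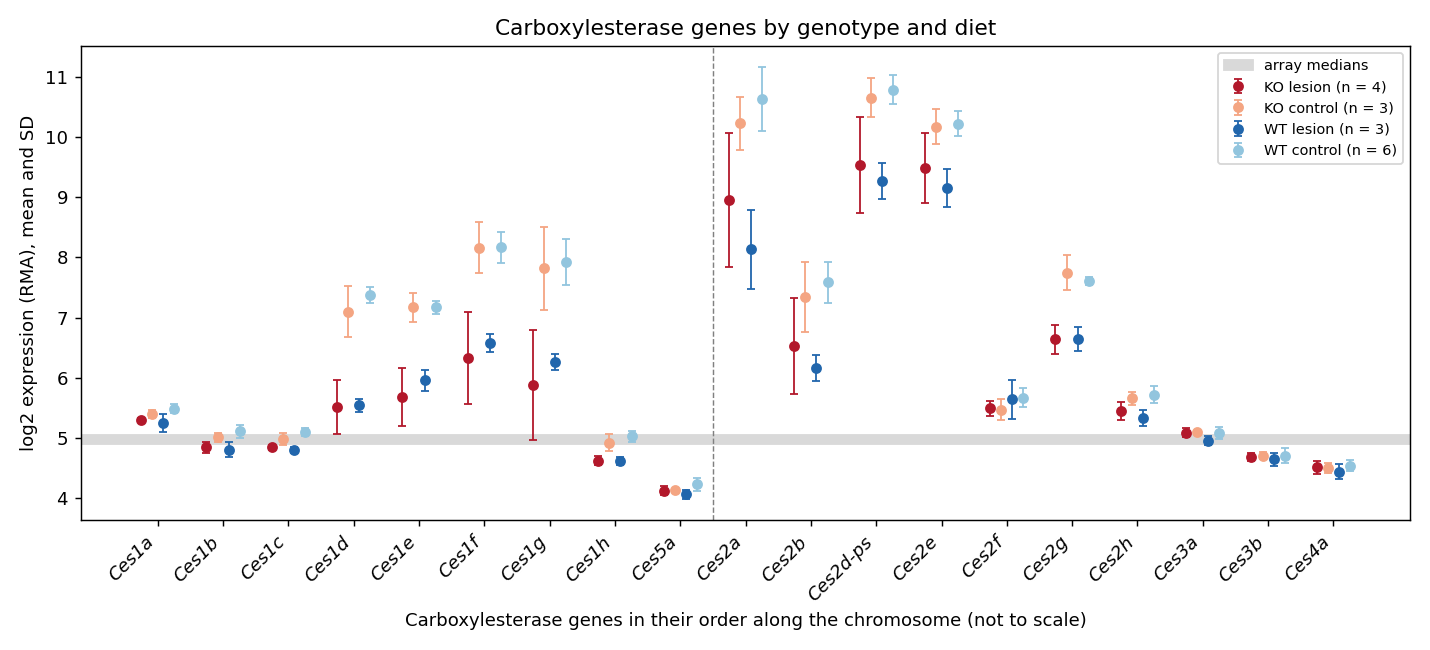
Mean and SD of log2 expression (vertical axis) of the 19 carboxylesterase genes in KO lesions, KO controls, WT lesions and WT controls, in their order along the chromosome, with a dashed line between the 2 groups and a grey band for the array medians of 4.90 to 5.05. The lesion means lie furthest below the control means for Ces1d to Ces1g and for Ces2a, Ces2b, Ces2d-ps, Ces2e and Ces2g. Ces1h passed in both responses with smaller falls of -0.30 in KO and -0.41 in WT. Ces1a, Ces1b, Ces1c and Ces2h passed in WT alone. The lesion means of Ces1b, Ces1c and Ces1h are dim, so their falls are lower bounds.

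Among the aldehyde dehydrogenases, 9 of 20 were lower and 1 higher in KO, and 8 were lower and 2 higher in WT. The retinaldehyde dehydrogenases Aldh1a1 and Aldh1a3 went in opposite directions. Aldh1a1 had 7.84, 9.23, 7.73 and 7.47 in KO lesions, against 10.15, 10.11 and 10.92 in KO controls. It had 8.55, 8.42 and 7.76 in WT lesions, against a low of 10.18, a median of 10.55 and a high of 11.16 in WT controls. All lesions lay below all controls, and KO lesion 2 was the highest of them. The change was -2.32 (SE 0.35, adjusted p = 1.93e-04) in KO and -2.37 (SE 0.33, adjusted p = 1.33e-04) in WT, or 5.01-fold and 5.16-fold lower. Its rodent copy Aldh1a7 had 5.90, 7.29, 6.52 and 5.90 in KO lesions, against 8.46, 8.47 and 8.66 in KO controls. It had 6.49, 6.90 and 6.33 in WT lesions, against a low of 8.12, a median of 8.45 and a high of 8.79 in WT controls. The groups were again apart. The change was -2.13 (SE 0.27, adjusted p = 3.85e-05) in KO and -1.86 (SE 0.25, adjusted p = 9.93e-05) in WT, and probes may not fully separate these copies. Aldh1a2, which makes retinoic acid in stromal and dendritic cells, had -0.03 in KO and -0.18 in WT and passed in neither.

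Aldh1a3, which also makes retinoic acid, was the member with the largest rise in both responses. It had 9.47, 8.17, 8.48 and 7.80 in KO lesions, against 5.70, 5.70 and 5.59 in KO controls. It had 7.35, 6.79 and 7.26 in WT lesions, against a low of 5.64, a median of 5.75 and a high of 5.84 in WT controls. Every lesion lay above every control, and every KO lesion lay above every WT lesion. The change was 2.81 (SE 0.26, adjusted p = 2.27e-06) in KO and 1.39 (SE 0.24, adjusted p = 9.36e-04) in WT, or 7.03-fold and 2.62-fold higher. Aldh6a1, a mitochondrial enzyme of valine and thymine breakdown, had 5.91, 6.51, 6.09 and 6.03 in KO lesions, against 7.43, 7.34 and 7.34 in KO controls. It had 6.20, 6.45 and 6.28 in WT lesions, against a low of 7.25, a median of 7.40 and a high of 7.61 in WT controls. Lesions and controls were well apart in both genotypes. The change was -1.24 (SE 0.12, adjusted p = 2.73e-06) in KO and -1.10 (SE 0.11, adjusted p = 7.08e-06) in WT.

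Smaller falls of aldehyde dehydrogenases passed in both responses. Aldh2, the mitochondrial enzyme that clears acetaldehyde, changed by -0.73 in KO and -0.85 in WT. Aldh1b1, a mitochondrial relative of Aldh2, changed by -0.55 and -0.50 in KO and WT. Aldh3a2, which oxidises fatty aldehydes, changed by -0.50 in KO and -0.39 in WT, and Aldh4a1, of proline breakdown, by -0.24 and -0.31. The formyltetrahydrofolate dehydrogenases differed in direction. The mitochondrial Aldh1l2 was lower in both, with -0.46 in KO and -0.52 in WT, while the cytosolic Aldh1l1 had 0.39 in KO without passing and was higher in WT with 0.51. Aldh5a1, which oxidises succinic semialdehyde, passed in KO with -0.54 and had -0.29 in WT. Aldh16a1, Aldh18a1, Aldh3a1, Aldh3b1, Aldh3b2, Aldh7a1, Aldh8a1 and Aldh9a1 passed in neither, with changes between -0.42 and 0.13 in KO and between -0.16 and 0.13 in WT.

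Among the aldo-keto reductases, 7 of 15 were lower in KO and 5 of 15 in WT, and none was higher. Of the 8 Akr1c genes 4 were lower in each response. The WT count of 5 was 3 without WT control 4 or WT lesion 1 and 2 without WT control 6 or WT lesion 3. Without these arrays in turn, 2233, 2235, 2424 and 1598 of all 30702 genes were lower in WT. Those higher numbered 2006, 1846, 1998 and 1557, so calls over all genes fell as well. With WT controls of the lower series alone, 2 Akr genes were lower and 1 was higher in WT. Akr1c14, a 3-alpha-hydroxysteroid dehydrogenase, had 6.07, 8.35, 7.43 and 7.20 in KO lesions, against 9.43, 9.24 and 9.59 in KO controls. It had 7.68, 8.83 and 7.91 in WT lesions, against a low of 9.18, a median of 9.22 and a high of 9.53 in WT controls. The lesions lay below the controls in both genotypes, with KO lesion 1 lowest and WT lesion 2 nearest to its controls. The change was -2.16 (SE 0.37, adjusted p = 5.96e-04) in KO, or 4.46-fold lower, and -1.17 (SE 0.35, adjusted p = 0.031) in WT. The WT call was lost without WT control 2 or 6 or WT lesion 1 or 3, with adjusted p of 0.0531, 0.0552, 0.138 and 0.135. Akr1c19, a member of the same cluster, had 6.39, 8.12, 7.55 and 6.37 in KO lesions, against 9.31, 8.97 and 9.53 in KO controls. It had 7.76, 7.85 and 8.05 in WT lesions, against a low of 9.11, a median of 9.30 and a high of 9.58 in WT controls. No lesion reached a control of its genotype. The change was -2.17 (SE 0.32, adjusted p = 1.52e-04) in KO and -1.43 (SE 0.30, adjusted p = 0.00326) in WT.

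Akr1c12 and Akr1c13, whose near-identical promoters are shown above, are measured by separate transcript clusters. Akr1c13 had 9.07, 9.29, 8.92 and 9.10 in KO lesions, against 9.96, 9.54 and 10.16 in KO controls. Akr1c12 had 9.18, 9.46, 9.08 and 9.30 in KO lesions, against 9.95, 9.46 and 10.06 in KO controls. The KO lesions were below the KO controls, except that KO lesion 2 was level with KO control 2 for Akr1c12. The change was -0.79 in KO and -0.47 in WT for Akr1c13, which passed in both, and -0.57 in KO and -0.39 in WT for Akr1c12, which passed in KO. Whether the array separates these 2 genes was not tested.

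Akr1e1, which reduces anhydrofructose in mice, had 7.09, 7.95, 8.05 and 7.68 in KO lesions, against 8.87, 8.62 and 8.80 in KO controls. It had 7.36, 8.34 and 8.04 in WT lesions, against a low of 8.48, a median of 8.70 and a high of 8.94 in WT controls. All lesions lay below the controls of their genotype, WT lesion 2 by the smallest step. The change was -1.07 (SE 0.22, adjusted p = 0.00234) in KO and -0.77 (SE 0.21, adjusted p = 0.0167) in WT, and the WT call was lost without WT lesion 1 (log2 change -0.50, adjusted p = 0.114). Akr1a1, an aldehyde reductase that serves vitamin C synthesis in mice, passed in KO with -0.33 and had -0.09 in WT. Akr7a5, which reduces aflatoxin aldehydes, passed in KO with -0.37 and had -0.22 in WT. The dim Akr1c21 passed in WT with -0.25. Akr1c18, the 20-alpha-hydroxysteroid dehydrogenase, had -0.97 in KO and -0.36 in WT and did not pass. Akr1b8 and Akr1b10, relatives of aldose reductase, had 0.22 and 0.37 in KO and 0.05 and 0.46 in WT and did not pass. Akr1c20, Akr1c6, Akr1cl and Akr1d1 were dim in every group and passed in neither.

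Among the hydroxysteroid dehydrogenases, 8 of 19 were lower and 2 higher in KO, and 9 were lower and 3 higher in WT. Some Hsd3b enzymes convert pregnenolone and related steroids to progesterone and its relatives. Of the 6 Hsd3b genes, counted whatever their substrate, 4 were lower in KO and 5 in WT. Hsd3b2 had 5.5, 7.40, 5.80 and 6.24 in KO lesions, against 8.49, 8.14 and 8.70 in KO controls. It had 6.06, 6.77 and 6.07 in WT lesions, against a low of 8.16, a median of 8.30 and a high of 8.72 in WT controls. All lesions were below all controls of both genotypes. The change was -2.21 (SE 0.33, adjusted p = 1.70e-04) in KO and -2.06 (SE 0.31, adjusted p = 2.41e-04) in WT, or 4.63-fold and 4.17-fold lower. Hsd3b3 had 7.80, 9.90, 8.29 and 8.71 in KO lesions, against 10.79, 10.56 and 10.80 in KO controls. It had 8.61, 9.33 and 8.69 in WT lesions, against a low of 10.51, a median of 10.69 and a high of 10.97 in WT controls. The pattern over arrays was that of Hsd3b2, with KO lesion 2 and WT lesion 2 the highest lesions. The change was -2.04 (SE 0.34, adjusted p = 3.95e-04) in KO and -1.85 (SE 0.31, adjusted p = 6.93e-04) in WT. Hsd3b6 changed by -0.87 in KO and -0.90 in WT. Hsd3b7, which acts in bile acid synthesis, changed by -0.54 in KO and -0.66 in WT. The dim Hsd3b1 had -0.13 in KO and passed in WT with -0.34, and the dim Hsd3b5 passed in neither.

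Enzymes of glucocorticoid activity changed in opposite directions in both genotypes, though in the fit as reported the fall of Hsd11b2 passed in KO alone. Hsd11b2 inactivates corticosterone and so keeps the mineralocorticoid receptor of the colon open to aldosterone. It had 7.88, 9.52, 8.98 and 8.38 in KO lesions, against 10.15, 10.23 and 9.45 in KO controls. It had 9.06, 9.50 and 9.31 in WT lesions, against a low of 9.94, a median of 10.03 and a high of 10.32 in WT controls. KO lesion 2 lay just above the lowest KO control, and WT lesions lay below all WT controls. The change was -1.25 (SE 0.29, adjusted p = 0.00531) in KO and -0.81 (SE 0.27, adjusted p = 0.0543) in WT, so that WT missed the threshold. The difference between the responses, KO minus WT, was -0.446 (SE 0.395) and did not pass (adjusted p = 0.61). In a fit of the KO groups alone KO did not pass (adjusted p = 0.0665), and in a fit of the WT groups alone WT did (adjusted p = 9.33e-04). WT also passed with the dim filter (0.0417), with array weights (0.0353) and with WT controls of the lower series alone (0.00331). Under the other settings run WT missed the threshold. Hsd11b1, which regenerates corticosterone, averaged 5.18 ± 0.21 in KO lesions and 4.59 ± 0.05 in KO controls (SD, n = 4 and 3). It averaged 4.97 ± 0.04 in WT lesions and 4.59 ± 0.05 in WT controls (SD, n = 3 and 6). Both control groups were dim, so it was at least 1.5-fold higher in KO and at least 1.30-fold higher in WT, with adjusted p of 1.83e-04 and 0.00415.

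Hsd17b13, a protein of lipid droplets, had 6.50, 8.10, 6.74 and 6.77 in KO lesions, against 8.30, 7.88 and 8.51 in KO controls. It had 6.67, 7.36 and 7.06 in WT lesions, against a low of 8.12, a median of 8.44 and a high of 8.71 in WT controls. KO lesion 2 lay within the KO controls, and all other lesions lay below the controls of their genotype. The change was -1.20 (SE 0.30, adjusted p = 0.00806) in KO and -1.41 (SE 0.27, adjusted p = 0.00216) in WT, and -1.56 in KO without KO lesion 2. Hsd17b2, which inactivates oestradiol and testosterone, changed by -0.87 in KO and -0.90 in WT and passed in both. Hsd17b10, a mitochondrial enzyme of isoleucine breakdown, changed by -0.64 in KO and -0.34 in WT and passed in both. Hsd17b4, of peroxisomal beta-oxidation, had -0.31 in KO and passed in WT with -0.33. Hsd17b7, of cholesterol synthesis, was higher in both with 0.67 in KO and 0.87 in WT. Hsd17b12, of fatty acid elongation, had 0.28 in KO without passing and was higher in WT with 0.47. Hsd17b1, Hsd17b11 and Hsd17b14 passed in neither, and Hsd17b3 and Hsd17b6 were dim throughout and passed in neither.

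Between the genotypes 1 of these genes passed. In KO lesions minus WT lesions 1 of 73 genes passed, Aldh1a3, where 0.306% of all genes passed, 0.248% higher and 0.0586% lower, and 5 of the 73 had an unadjusted p under 0.05, as did 4127 of all 30702 genes. Aldh1a3 averaged 8.48 ± 0.71 in KO lesions and 7.13 ± 0.30 in WT lesions (SD, n = 4 and 3). The 4 KO lesions all lay above the 3 WT lesions. The difference was 1.34 (SE 0.26, adjusted p = 0.0459), close to the threshold. With the replicate number as a block, which treats same-numbered arrays as matched, it was 1.44 (adjusted p = 0.13). The call was also lost without any 1 of the 3 WT lesions, with adjusted p of 0.111, 0.163 and 0.181, without KO lesion 2 (0.0744), and in a fit of the lesions alone (0.445). Over all settings run, including each array left out, the difference lay between 1.01 and 1.57. Without KO lesion 3, Aldh18a1 passed as well, with -0.62 (adjusted p = 0.0378). Markers of neutrophils, 3 of 9 of which passed in this comparison and all 3 higher, had array means of 7.71 to 9.06 in KO lesions and 6.79 to 7.41 in WT lesions, and their part in the Aldh1a3 difference was not tested.

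On the control diet, KO minus WT, none of the 73 genes passed and none had an unadjusted p under 0.05, and none of all 30702 genes passed either (0.0%), with 641 of them at an unadjusted p under 0.05. The lowest p among the members belonged to Hsd3b7 with -0.13, Ces1c with -0.12 and Hsd17b14 with -0.11. Within the higher number series, which holds all KO controls and 3 WT controls, again none passed. In the test of the difference between the responses, KO minus WT, none of 73 passed, where 0.00326% of all genes did, and 2 of the 73 had an unadjusted p under 0.05, as did 3422 of all genes. Aldh1a3 had 1.42 (SE 0.36, adjusted p = 0.39), Aldh18a1, of proline synthesis, had -0.55 (SE 0.24, adjusted p = 0.427), and Hsd17b14 had 0.19 (SE 0.09, adjusted p = 0.458). The 2 responses share no arrays, but the comparisons between genotypes reuse the same groups.

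The mean of the 19 lowered genes of the 20, which were chosen for these changes, is given by array as a description. It was 6.70, 8.17, 7.08 and 7.07 in KO lesions, against 8.78, 8.61 and 9.05 in KO controls. It was 7.27, 7.62 and 7.26 in WT lesions, against 8.70 to 9.15 in WT controls. KO lesion 2 was the lesion nearest to the controls, and no lesion reached the controls. The mean of the colonocyte markers in the same KO lesions was 9.75, 10.58, 9.39 and 10.03, so that KO lesion 2 was also highest there. Between the other lesions the orders of these means differed. Without KO lesion 2 all 20 genes had a larger change in KO.

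**Figure D4:**
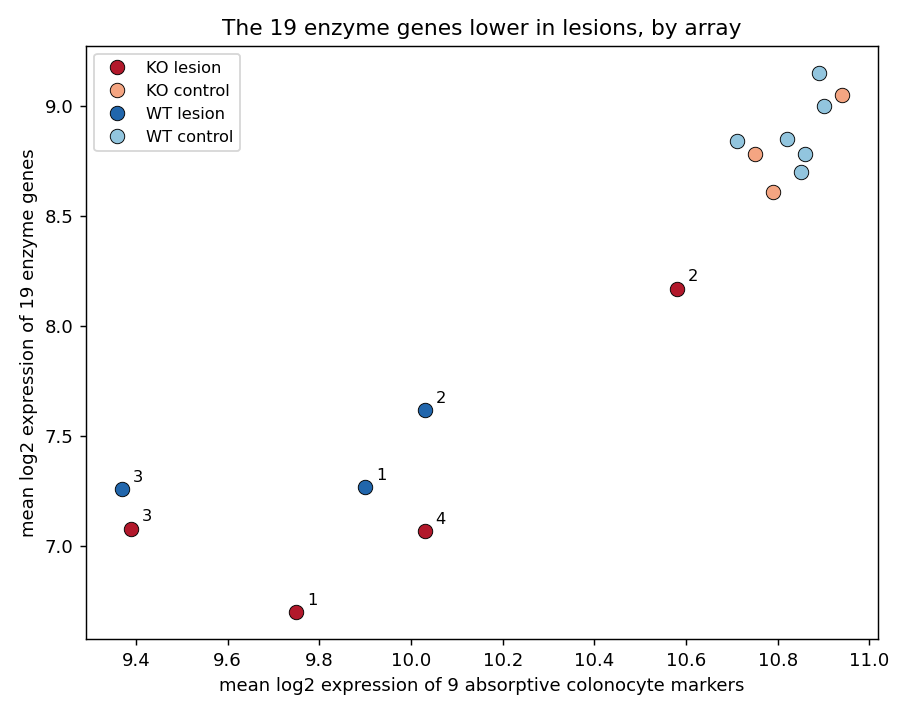
Mean log2 expression of the 19 lowered enzyme genes (vertical axis) against that of 9 absorptive colonocyte markers (horizontal axis) in each array, with replicate numbers beside the lesions. All controls lie at the upper right, at 8.61 or higher, the lesions lie lower and to the left, and KO lesion 2 lies between the other lesions and the controls with 8.17.

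The genes around these enzymes in their pathways were counted from lists of pathway genes. Of 29 measured genes of retinoid metabolism and signalling outside the families, 5 were higher and 8 lower in KO, and 2 higher and 8 lower in WT, where 21.1% of all genes passed in KO and 15.3% in WT. With the number series as a covariate 2 were higher and 4 lower in KO, where 1386 of all 30702 genes were higher and 1125 lower. Adh1, an alcohol dehydrogenase that also oxidises retinol, had 7.81, 10.23, 8.82 and 8.01 in KO lesions, against 11.50, 11.41 and 11.07 in KO controls. It had 8.92, 9.81 and 9.33 in WT lesions, against a low of 11.08, a median of 11.18 and a high of 11.26 in WT controls. All lesions lay below all controls, KO lesion 2 least so. The change was -2.61 (SE 0.40, adjusted p = 2.14e-04) in KO and -1.82 (SE 0.37, adjusted p = 0.00295) in WT. Dhrs9, a retinol dehydrogenase, had 11.62, 11.16, 11.33 and 11.47 in KO lesions, against 9.53, 9.62 and 8.58 in KO controls. It had 10.97, 11.46 and 11.19 in WT lesions, against a low of 9.01, a median of 9.37 and a high of 9.50 in WT controls. All lesions lay above all controls. The change was 2.15 (SE 0.21, adjusted p = 2.81e-06) in KO and 1.88 (SE 0.19, adjusted p = 8.23e-06) in WT, so that in retinoid oxidation Adh1 and Aldh1a1 were lower in lesions while Dhrs9 and Aldh1a3 were higher.

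Of 25 measured genes of steroid synthesis and corticosteroid signalling, 2 were higher and 10 lower in KO, and 1 higher and 8 lower in WT. The shares of all genes that passed were 21.1% in KO and 15.3% in WT. With the number series as a covariate 0 were higher and 5 lower in KO, where 1386 of all 30702 genes were higher and 1125 lower. Nr5a2, the nuclear receptor LRH-1 that drives intestinal glucocorticoid synthesis, had 5.96, 7.93, 7.37 and 6.63 in KO lesions, against 9.02, 9.21 and 9.15 in KO controls. It had 7.55, 7.98 and 7.99 in WT lesions, against a low of 8.73, a median of 8.91 and a high of 9.08 in WT controls. Lesions lay below controls in both genotypes, with KO lesion 1 lowest. The change was -2.15 (SE 0.31, adjusted p = 1.23e-04) in KO and -1.07 (SE 0.29, adjusted p = 0.0184) in WT, and the WT call was lost without WT lesion 1 (adjusted p = 0.0872). Sgk1, a kinase induced by corticosteroids, had 6.71, 7.35, 6.39 and 6.85 in KO lesions, against 7.87, 8.18 and 7.75 in KO controls. It had 6.49, 6.69 and 6.56 in WT lesions, against a low of 7.73, a median of 8.19 and a high of 8.42 in WT controls. No lesion reached a control. The change was -1.10 (SE 0.19, adjusted p = 6.14e-04) in KO and -1.59 (SE 0.18, adjusted p = 2.15e-05) in WT.

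Of 21 measured esterases and lipases outside the Ces family, 1 was higher and 8 lower in KO, and 1 higher and 6 lower in WT. For this list and the next, the shares of all genes that passed were 21.1% in KO and 15.3% in WT. Aadac, arylacetamide deacetylase, which like the carboxylesterases hydrolyses drugs, had 5.53, 7.44, 6.03 and 5.91 in KO lesions, against 9.57, 9.15 and 8.99 in KO controls. It had 6.32, 7.55 and 7.20 in WT lesions, against a low of 8.94, a median of 9.12 and a high of 9.51 in WT controls. The groups did not overlap in either genotype. The change was -3.01 (SE 0.36, adjusted p = 2.39e-05) in KO and -2.15 (SE 0.33, adjusted p = 3.37e-04) in WT. Clps, colipase, had 6.01, 7.30, 6.37 and 6.09 in KO lesions, against 8.68, 8.20 and 9.31 in KO controls. It had 6.12, 6.06 and 6.02 in WT lesions, against a low of 8.37, a median of 8.72 and a high of 9.34 in WT controls. WT lesions lay close together, and KO lesion 2 was above the other lesions and below the controls. The change was -2.29 (SE 0.30, adjusted p = 5.05e-05) in KO and -2.67 (SE 0.28, adjusted p = 9.60e-06) in WT. Of 18 measured xenobiotic receptors, their partners and their target genes, 2 were higher and 4 lower in KO, and 1 higher and 4 lower in WT, or 1 and 2 without WT lesion 2. Ppara, a nuclear receptor for fatty acids, changed by -0.76 (SE 0.15, adjusted p = 0.00202) in KO and -1.02 (SE 0.14, adjusted p = 1.48e-04) in WT. Txnrd1, thioredoxin reductase, a target of Nfe2l2, changed by 0.94 (SE 0.10, adjusted p = 9.09e-06) in KO and 0.72 (SE 0.09, adjusted p = 8.52e-05) in WT. All lesions lay below all controls for Ppara and above them for Txnrd1.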

How the data were processed

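RNA of 16 mucosa samples was measured on 1 Affymetrix array each. The deposited values are log2 expression on 72688 transcript clusters, made by the authors with RMA in Affymetrix Power Tools 1.16.1, per the submitters' processing notes. RMA corrects background, normalises quantiles and summarises probes, and it compresses differences near background, so a fold against a dim group (mean below the lowest array median of 4.90) is a lower bound. The number of arrays limits the precision. The build behind the array annotation is not given in the sources used here, and GRCm38.p6 is the build of the RefSeq promoter windows only.

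Gene symbols came from the platform table and were updated through RefSeq (1702 symbols), which left 31258 transcript clusters with 1 symbol, 1492 with several and 30702 genes, using the brightest of several per gene. The 73 members were the genes whose symbol starts with Ces, Aldh, Akr or Hsd and a digit. Another 3 transcript clusters of these families had several symbols and were left out. The members, the gene lists, the markers and the motifs were chosen with earlier results of these data known.

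The 4 group means of all 16 arrays were fitted together in limma 3.58.1 (R 4.3.3). Its moderated two-sided test was adjusted by Benjamini-Hochberg over all genes, and a gene passed at an adjusted p under 0.05. The script was tested on simulated data. Values by array are given for members that passed with a log2 change of at least 1 in either response or passed between genotypes. They are also given for the 2 largest passed changes of the retinoid, steroid and esterase lists. WT controls of these genes are given as low, median and high. For the 2 of the xenobiotic list, and for the 3 lowest p where none passed, the changes are given. Mcc, the check of the knockout, is given as group means. No pair of arrays in a group was a duplicate, with correlations of 0.9825 to 0.996. Same-numbered arrays deviated together in KO and WT lesions (r of 0.465, 0.296 and 0.540). They did so less clearly in the WT response (0.348, 0.171 and 0.0968) and not in the KO response (-0.300 to -0.145) or between the control groups (-0.336 to -0.243). The numbers come from the sample titles. Arrays with different numbers were not compared in this way, so these values do not show whether the samples are paired. Alternatives covered the replicate block, leaving out each array, the number series, array weights, a trend with robust prior, centring, the dim filter, the row per gene and fits of the compared groups. Using the higher number series alone, and the share of passed genes among genes that were not dim, were added after seeing the data.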

Additional observations from a re-analysis of the deposited data

Results flagged for a closer look

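For 33 named genes, the KO lesions and the WT controls were searched for a single array far from its group, 66 groups in all. Such a search marks about 1 in 20 groups by chance, and 3 were marked here. Hsd17b13 was 8.10 in KO lesion 2, while the other KO lesions had 6.50 to 6.77. Ppara was 6.52 in KO lesion 2, while the other KO lesions had 5.91 to 6.00. Both marks belong to the lesion whose lowered enzyme genes and colonocyte markers were nearest to the controls. Ces1e was 7.39 in WT control 3, while the other WT controls had 7.11 to 7.14. All 3 genes were lower in both responses.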

How the results depend on the processing

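In the KO response 29 to 38 genes passed when 1 array was left out and 27 to 38 under 9 other settings, and in the WT response 31 to 39 and 34 to 45 under 10 other settings, against 34 and 41 as reported. Between lesions 0 to 2 genes passed when 1 array was left out. The number was 0 with the replicate block, in a fit of the compared groups only, with array medians centred, with a trend and robust prior and with a term for the number series, and 2 with array weights, where Hsd11b1 joined Aldh1a3 (adjusted p = 0.0466). On the control diet and for the difference between the responses 0 genes passed under every setting run. No direction of a named gene was reversed under any setting run. With the replicate block 31 genes passed in KO and 35 in WT. Of all 30702 genes 2522 were then higher and 3275 lower in KO, and 1680 higher and 1852 lower in WT. Besides Ces2d-ps in KO and Aldh1a3 and Mcc between lesions, the block ended the WT call of Akr1c14 (adjusted p = 0.0654). The Akr count in WT was 2 with that block. The covariate for the number series gave 27 calls in KO, 23 lower and 4 higher, and 36 in WT, 31 lower and 5 higher. Among the Akr genes it gave 2 lower and 0 higher in KO, and 1 lower and 1 higher in WT. In KO it left 6 retinoid and 5 steroid genes, against 13 and 12 as reported. Calls over all 30702 genes fell as well in KO, to 1386 higher and 1125 lower, against 2758 and 3709 as reported. In WT they were 2024 higher and 2097 lower, against 2143 and 2568. The covariate ended the KO calls of Sgk1, Akr1e1 and Ces2d-ps (adjusted p of 0.0606, 0.0907 and 0.148) and the WT calls of Nr5a2, Akr1c14 and Akr1e1 (0.0644, 0.0784 and 0.0607). A fit of the compared groups alone ended the KO calls of Ces2d-ps, Hsd11b2 and Hsd17b13 (adjusted p of 0.112, 0.0665 and 0.0698). Between lesions it ended the calls of Aldh1a3 and Mcc (0.445 and 0.205), where 1 of all 30702 genes was higher and 0 lower. Array weights ended the KO call of Ces2d-ps as well (adjusted p = 0.0602). The cause was not tested. Signal over background limits the 13 dim genes, for which a missed call says little.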
